A study of Homo sapiens with 6 samples.

Results

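Transcripts of 10 mucin genes were measured by RNA sequencing in AsPC-1 cells, a standard human cell line grown from a pancreatic carcinoma. The 10 genes were chosen by name: the membrane mucins MUC1, MUC4, MUC13, MUC16, MUC17 and MUC20, and the secreted, gel-forming mucins MUC2, MUC5AC, MUC5B and MUC6. They were 10 of 58735 genes in the table, and 7 of the 15319 genes with enough reads to be tested. Both viruses were lentiviruses. The Vector group (3 libraries, genotype labelled WT) held cells that had received an empty virus, and the OE-MMP28 group (3 libraries, genotype labelled MMP28 overexpression) held cells that had received a virus for MMP28, a secreted matrix metalloproteinase. Per the study's methods, the MMP28 virus carried GFP and puromycin resistance and transduced cells were selected with puromycin, but the make-up of the empty virus was not stated in full. The methods name triplicate samples per group for sequencing and, for cell experiments in general, independent repeats. They do not say whether these 3 libraries of a group came from separate cultures, so the p-values measure the spread between these libraries, which may be technical.

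Mucins are large glycoproteins whose central domain is rich in serine, threonine and proline, carries dense O-linked sugar chains and is often built from tandem repeats. Membrane mucins are anchored at the apical surface of epithelial cells, where they form part of the glycocalyx and can be cleaved from the cell, while gel-forming mucins are packed into granules, secreted and linked into polymers that make up mucus. Pancreatic carcinomas often make both kinds.

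The tandem repeats are shown first because they bear on what a short read can measure: a read that lies inside a repeat can match several places in the same gene. The sequences below are the unit with the most exact copies in the longest coding transcript of 4 members, read from GENCODE release 29 on build GRCh38, in lower case throughout, 5′ to 3′ on the strand of the gene. All 4 lie in an exon, within coding sequence. The unit of MUC1 has 60 bases and 19 exact copies, that of MUC4 has 48 bases and 14 copies, that of MUC20 has 57 bases and 10 copies, and that of MUC5AC has 24 bases and 16 copies.
MUC1, chr1:155191821-155191880, minus strand, exon 2: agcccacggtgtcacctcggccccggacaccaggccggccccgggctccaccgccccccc
MUC4, chr3:195788035-195788082, minus strand, exon 2: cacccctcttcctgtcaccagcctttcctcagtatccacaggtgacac
MUC20, chr3:195725148-195725204, plus strand, exon 2: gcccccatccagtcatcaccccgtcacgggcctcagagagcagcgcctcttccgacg
MUC5AC, chr11:1185245-1185268, plus strand, exon 31: ctcctacaaccagcacaacctctg

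Of the 100-base windows of its coding sequence, 35.9% in MUC1, 13.8% in MUC4, 10.8% in MUC5AC and 19.8% in MUC5B had an identical copy elsewhere in the same coding sequence. The share was 0.389% in MUC17 and 0% in MUC13, although 72.0% of the MUC17 coding sequence lay in an imperfect repeat with a period of 177 bases. For MUC1, MUC4, MUC13, MUC16, MUC17, MUC5AC and MUC6, no coding window was found in the transcripts of another gene. For MUC20, 57.5% of its windows also occurred in MUC20-OT1 or MUC20P1, and 42.8% of its exon length overlapped MUC20-OT1 on the same strand, so its counts are uncertain. Of MUC5B, 1.67% of the windows occurred in MUC5B-AS1 on the opposite strand, which had 0 counts in all 6 libraries, and MUC2 has too short an annotated coding sequence in this release to be described this way. How the authors' counting treated reads with several matches was not given in the sources used here.

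The 250 bases before the RefSeq start sites of MUC1 and MUC13 are shown because these 2 members rose together (below). They are from RefSeq on build GRCh38.p14, 5′ to 3′ on the strand of the gene, with capitals for the motifs found. The RefSeq start of MUC13, at 124934751, lies inside the GENCODE span of the gene, which on this strand begins at 124953819. No window before that GENCODE start was searched.
MUC1, chr1:155192916-155193165, minus strand: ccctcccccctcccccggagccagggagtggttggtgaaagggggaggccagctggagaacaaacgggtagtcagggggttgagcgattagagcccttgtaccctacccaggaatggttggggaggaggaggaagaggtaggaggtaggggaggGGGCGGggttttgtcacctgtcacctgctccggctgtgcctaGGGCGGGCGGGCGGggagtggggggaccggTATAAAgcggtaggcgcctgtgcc
MUC13, chr3:124934752-124935001, minus strand: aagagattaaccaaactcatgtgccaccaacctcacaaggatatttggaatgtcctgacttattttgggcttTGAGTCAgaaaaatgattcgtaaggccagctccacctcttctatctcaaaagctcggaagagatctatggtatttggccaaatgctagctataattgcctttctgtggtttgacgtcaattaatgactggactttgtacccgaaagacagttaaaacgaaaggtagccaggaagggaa

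Both strands were searched for TATAAA (the core promoter element), GGGCGG (the site of SP factors), TGACTCA (the site of JUN and FOS), TTCNNNGAA (the site of STAT factors), TGTTTAC (a forkhead site), AGATAA (the site of GATA factors) and CACGTG (an E-box). The MUC1 window held TATAAA 24 bases before the start and 4 matches to GGGCGG, 3 of which overlap each other. TATAAA was found in 10.7% and GGGCGG in 42.6% of 35116 promoter windows of the same length. The MUC13 window held neither, and held TGACTCA on the reverse strand (written TGAGTCA above), which 4.20% of all windows held. TGACTCA was also found in the window of MUC17, whose fold change is given below and did not pass the test, and not in that of MUC1. The window of MUC4 held GGGCGG on the reverse strand and TTCNNNGAA, which was found in 6.57% of all windows. A MUC16 window, before the start at 9065751, held GGGCGG on the reverse strand, and the MUC2 window held none of the motifs. For MUC5AC, MUC5B, MUC6 and MUC20 no window was available, so these members were not searched. These matches describe the letters and are not evidence of binding.

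MMP28 was read in every library first. Its level in FPKM (sequenced fragments divided by library total and gene length) was 5.17, 9.11 and 8.43 in the Vector libraries and 13.1, 13.9 and 15.1 in the OE-MMP28 libraries, given here and below in the order of their replicate numbers. The groups did not overlap, as was found in this direction for 19.0% of all genes tested. MMP28 was higher in the OE-MMP28 group, the direction that its label gives. The log2 fold change was 0.90 (SE 0.19, adjusted p = 0.00226, quasi-likelihood test of edgeR, Benjamini-Hochberg over 15319 genes, n = 3 per group), and every adjusted p below comes from that fit unless another test is named.

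In the OE-MMP28 cells MUC1 and MUC13 rose, and MUC4, MUC5AC and MUC5B fell, at an adjusted p under 0.05. The test passed neither MUC17 nor MUC20, and MUC2, MUC6 and MUC16 had too few reads to be tested. Of the 15319 genes tested, 11.7% were called higher and 11.6% lower, 23.4% together, so calls were frequent in these cells. With a log2 fold change beyond 1 as well, MUC1 and MUC13 were higher and MUC5AC and MUC5B lower, against 3.06% and 4.32% of all genes. Since MUC5AC and MUC5B passed the filter on low counts only through the Vector group, their calls and any count that includes them are not independent of that filter. In such bulk samples, fewer cells that make a mucin and less RNA per cell cannot be told apart.

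**Figure D1:**
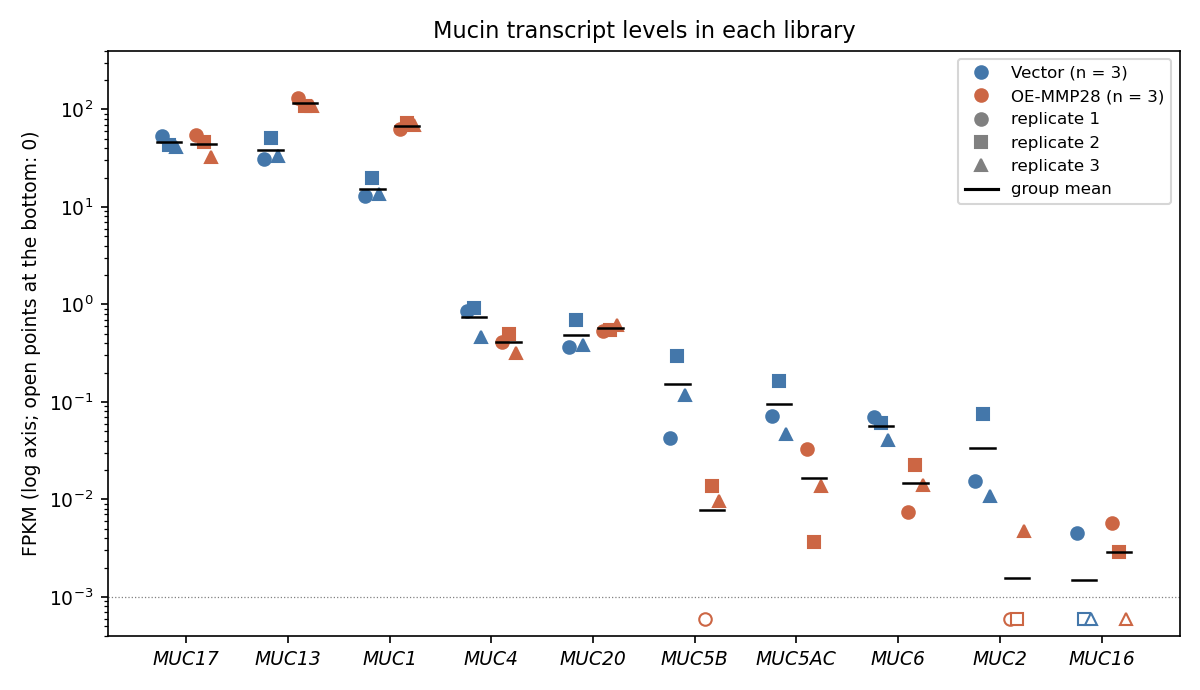
Level of each mucin in FPKM (log axis) in each of the 6 libraries, with Vector in blue, OE-MMP28 in orange, a different marker for each replicate, group means as bars and open points at the bottom for levels of 0. MUC17, MUC13 and MUC1 stand above 10 FPKM in every library, MUC4 and MUC20 below 1 FPKM, and the 4 gel-forming mucins at 0.298 FPKM or less.

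MUC1 is the archetype of the membrane mucins, with a cytoplasmic tail that binds signalling proteins. Its gene (ENSG00000185499) lies on chromosome 1 from 155185824 to 155192916 on the minus strand. The 3 Vector libraries had 13.0, 19.7 and 13.6 FPKM and the 3 OE-MMP28 libraries 63.1, 71.8 and 69.2 FPKM, from 937 to 5490 reads per library. Every OE-MMP28 library was above every Vector library, and the lowest OE-MMP28 level was over 3 times the highest Vector level. Of all genes tested, 19.0% were higher without overlap. The means were 15.4 ± 3.70 and 68.0 ± 4.48 FPKM (SD, n = 3 each), a ratio of 4.42, and the log2 fold change was 2.16 (SE 0.17, adjusted p = 3.60e-08). Of the 15319 genes tested, 96 had a larger log2 fold change. By level, MUC1 stood above 82.0% of the tested genes in the Vector group and above 96.6% in the OE-MMP28 group.

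MUC13 is a membrane mucin of the gastrointestinal epithelium with EGF-like domains (ENSG00000173702, chromosome 3, 124905442 to 124953819, minus strand). Its level was 30.7, 51.2 and 33.5 FPKM in the Vector libraries and 131, 108 and 110 FPKM in the OE-MMP28 libraries. Again the groups were separate, with Vector replicate 2 the highest of its group. The means were 38.4 ± 11.1 and 116 ± 12.8 FPKM (SD, n = 3 each), a ratio of 3.02, and the log2 fold change was 1.61 (SE 0.18, adjusted p = 2.93e-06). A larger log2 fold change was found for 196 of the 15319 genes. MUC13 moved from above 94.0% of the tested genes by level to above 98.3%.

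MUC17, a membrane mucin of the intestinal brush border (ENSG00000169876, chromosome 7, 101020072 to 101058745, plus strand), overlapped MUC13 in level in the Vector cells. It had 53.4, 43.4 and 41.5 FPKM in the Vector libraries and 54.2, 46.6 and 32.8 FPKM in the OE-MMP28 libraries. The groups overlapped fully, and OE-MMP28 replicate 3 was the lowest of all 6. The means were 46.1 ± 6.37 and 44.5 ± 10.9 FPKM (SD, n = 3 each) and the log2 fold change was -0.040 (SE 0.17, adjusted p = 0.893), with 2 SE on each side reaching from -0.38 to 0.30. Its counts of 8049 to 12502 reads per library were higher than those of any other member in every library.

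MUC4, a membrane mucin known to bind the receptor ERBB2 (ENSG00000145113, chromosome 3, 195746765 to 195812277, minus strand), was far scarcer. It had 0.847, 0.913 and 0.458 FPKM in the Vector libraries and 0.412, 0.497 and 0.318 FPKM in the OE-MMP28 libraries, from 114 to 276 reads. Vector replicate 3 lay within the range of the OE-MMP28 group, so the groups overlapped. MUC4 fell by 0.84 on the log2 scale (SE 0.24, adjusted p = 0.0160). The call was lost without Vector replicate 2 (adjusted p = 0.0531), without OE-MMP28 replicate 3 (adjusted p = 0.0937) and in limma on log2(FPKM + 1) and log2(FPKM + 0.1).

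MUC20, which is known to bind the receptor MET, neighbours MUC4 (ENSG00000176945, chromosome 3, 195720882 to 195741123, plus strand). Its level was 0.369, 0.697 and 0.383 FPKM in the Vector libraries and 0.536, 0.549 and 0.615 FPKM in the OE-MMP28 libraries, from 24 to 44 reads. Vector replicate 2 was above all OE-MMP28 libraries and the other Vector libraries were below them. The log2 fold change was 0.25 (SE 0.34, adjusted p = 0.637). MUC16, the membrane mucin that binds mesothelin (ENSG00000181143, chromosome 19, 8848844 to 8981342, minus strand), had 3, 0 and 0 reads in the Vector libraries and 4, 2 and 0 reads in the OE-MMP28 libraries. A count of 0 allows up to 3 reads, which is 0.180 to 0.220 CPM (counts scaled to the library total) in these libraries, so MUC16 was at or near the limit of detection throughout.

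The 4 gel-forming mucins lie in 1 cluster on chromosome 11, and each had lower FPKM in all OE-MMP28 libraries than in any Vector library. Of all genes tested, 19.1% were lower without overlap, but MUC2 and MUC6 were not among the genes tested. MUC5AC and MUC5B were tested only through their Vector counts, so the share is not a direct comparison for this cluster. All 4 were scarce, and none reached 0.3 FPKM in any library. MUC5B (ENSG00000117983, 1223066 to 1262172, plus strand), known from airway and salivary mucus, had 0.0422, 0.298 and 0.117 FPKM in the Vector libraries and 0, 0.0136 and 0.00959 FPKM in the OE-MMP28 libraries. These levels rest on 12, 75 and 32 reads against 0, 4 and 3. Pooled and scaled to library size, the level was 18.8-fold lower in the OE-MMP28 group (95% exact interval 8.84 to 47.7, counting error only, so the spread between libraries is not in it). edgeR gave a log2 fold change of -4.20 (SE 0.73, adjusted p = 0.000395), and 15 tested genes had a lower value.

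MUC5AC, the mucin of the gastric surface that is often made by pancreatic cancers (ENSG00000215182, 1157953 to 1201138, plus strand), had 19, 39 and 12 reads in the Vector libraries and 9, 1 and 4 reads in the OE-MMP28 libraries. The corresponding levels were 0.0712, 0.165 and 0.0467 FPKM against 0.0326, 0.00362 and 0.0136 FPKM. The gap between the groups was narrow, from OE-MMP28 replicate 1 to Vector replicate 3. The pooled level was 5.53-fold lower (95% exact interval 3.08 to 10.6) and the log2 fold change was -2.46 (SE 0.61, adjusted p = 0.00606). The calls of MUC5AC and MUC5B were lost in limma on log2(FPKM + 1) and on log2(FPKM + 0.1). Without Vector replicate 2 the adjusted p of MUC5AC was 0.0498, just under the threshold.

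The remaining members of the cluster could be described but not tested. MUC6, the mucin of gastric glands (ENSG00000184956, 1012821 to 1036706, minus strand), had 9, 7 and 5 reads against 1, 3 and 2, a pooled level 3.87-fold lower in the OE-MMP28 group (95% exact interval 1.51 to 11.7). MUC2, the mucin of intestinal goblet cells (ENSG00000198788, 1074875 to 1110511, plus strand), had 3, 13 and 2 reads against 0, 0 and 1, a pooled ratio of 19.9 between Vector and OE-MMP28 (95% exact interval 3.14 to 829). Most of the MUC2 reads came from Vector replicate 2.

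**Figure D2:**
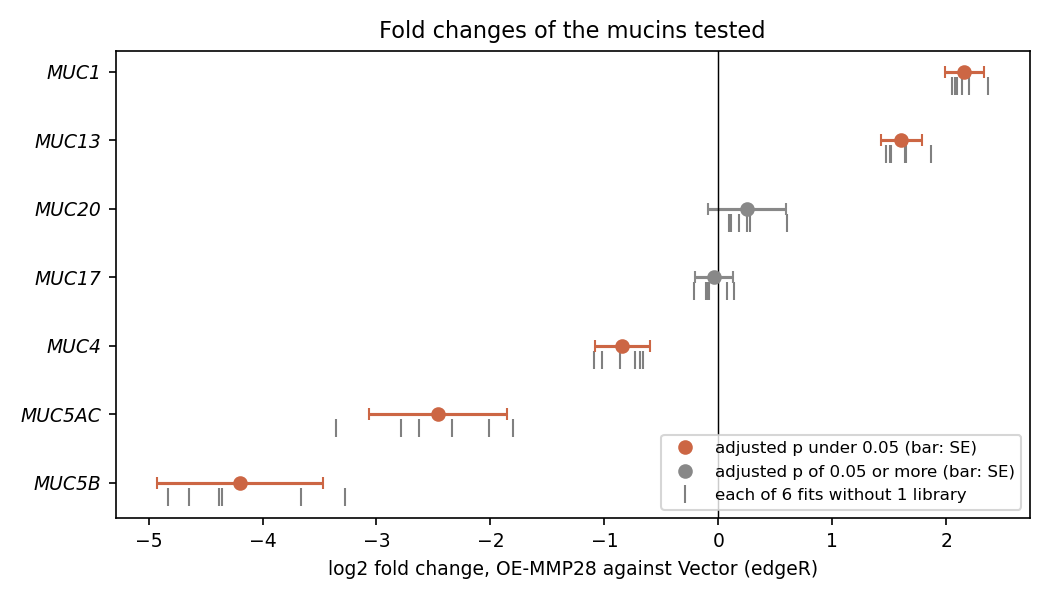
Log2 fold change of OE-MMP28 against Vector for the 7 mucins tested (points, with bars of 1 SE; orange for an adjusted p under 0.05, grey otherwise) and, below each point, the values of the 6 fits that leave out 1 library (ticks). MUC1 stays between 2.05 and 2.37 and MUC13 between 1.47 and 1.87 without any library, MUC17 lies on both sides of 0, and MUC5AC and MUC5B spread widely below 0.

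Because FPKM is scaled to gene length, the members were also ordered by level within a library. Length scaling does not correct for reads with several matches, whose handling was not given. Windows repeated within the gene were 35.9% in MUC1 and 0% in MUC13, and 57.5% of MUC20 windows occurred in other genes. The order and the shares below are uncertain to that extent. In the Vector group MUC17 and MUC13 overlapped, MUC1 was below both, MUC4 and MUC20 overlapped at under 1 FPKM, and each of the gel-forming mucins overlapped the next in the order MUC5B, MUC5AC, MUC6 and MUC2. MUC17 led in Vector replicates 1 and 3 and MUC13 in Vector replicate 2. The order MUC13, MUC1, MUC17 was found in all 3 OE-MMP28 libraries, with no overlap between the 3 genes. MUC20 was also above MUC4 in all 3 OE-MMP28 libraries, while MUC4 was above MUC20 in all 3 Vector libraries.

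The summed level of the 10 mucins was 98.4, 116 and 89.5 FPKM in the Vector libraries and 249, 228 and 212 FPKM in the OE-MMP28 libraries. MUC17 made up 45.9% ± 8.47 of this sum in the Vector group and 19.2% ± 3.34 in the OE-MMP28 group (SD, n = 3 each). The share of MUC13 was 37.5% ± 6.39 and 50.5% ± 2.67, and that of MUC1 was 15.1% ± 1.84 and 29.8% ± 3.93, in the same order. None of these 3 shares overlapped between the groups. The gel-forming mucins together held 0.319% ± 0.172 of the sum in the Vector group and 0.0178% ± 0.00186 in the OE-MMP28 group. MUC13 exceeded MUC1 by a factor of 2.36 to 2.60 in the Vector libraries and of 1.51 to 2.08 in the OE-MMP28 libraries. These shares and factors follow from the levels already given, were not tested again, and carry the same uncertainty about reads with several matches.

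**Figure D3:**
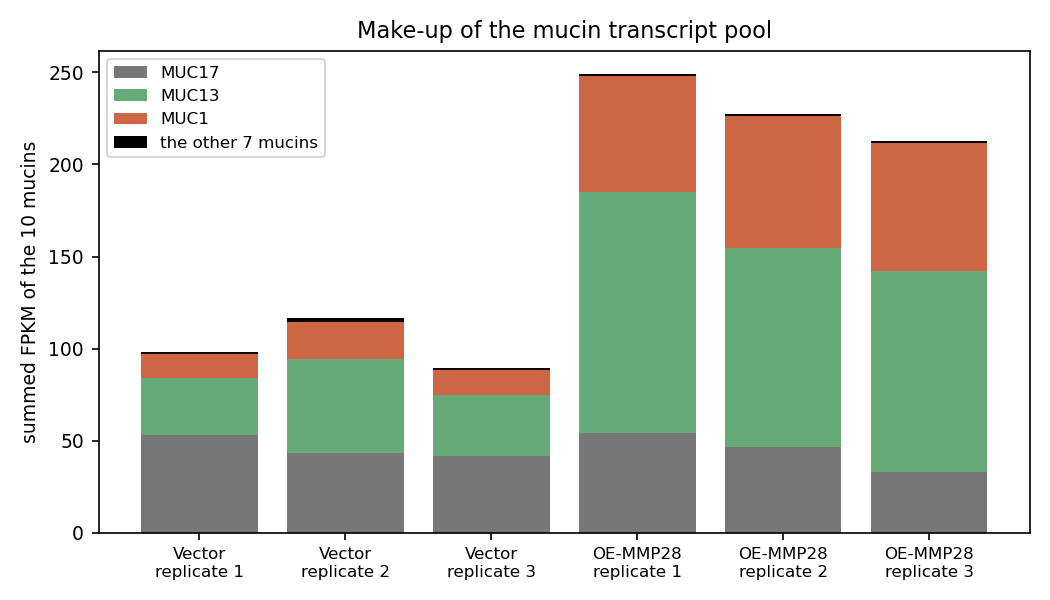
Summed FPKM of the 10 mucins in each library (stacked bars from 0), split into MUC17 (grey), MUC13 (green), MUC1 (orange) and the other 7 mucins (black). The sums lie between 89.5 and 116 FPKM in the Vector libraries and between 212 and 249 FPKM in the OE-MMP28 libraries, with a grey part of similar height in both groups.

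Vector replicate 2 was the highest Vector library for 7 of the 10 members, and Vector replicates 1 and 3 for 3 and 0. Over all 15319 genes tested, these libraries were the highest of their group in 37.1% (replicate 1), 35.4% (replicate 2) and 27.5% (replicate 3). Of the tested genes of the lists described below, Vector replicate 2 was the highest for 8 of 9 secretory partners, 12 of 17 transcription factors, 4 of 4 other mucins, 7 of 15 partners of membrane mucins, 3 of 7 proteases and 4 of 15 O-glycan enzymes. Without it the log2 fold change was -1.80 for MUC5AC and -3.27 for MUC5B, and 2.37 for MUC1 and 1.87 for MUC13. The value was -3.35 for MUC5AC without OE-MMP28 replicate 1 and -4.83 for MUC5B without OE-MMP28 replicate 2.

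The partners and regulators of mucins were examined in 6 lists, all read from the same fit, where 11.7% of the genes tested were called higher and 11.6% lower and the median log2 fold change was 0.014. The list of other mucins held 13 genes, of which 4 were tested and 7 had a count of 0 in all libraries. None of the 4 was called by edgeR or DESeq2, also at an unadjusted p under 0.05. Without Vector replicate 2 edgeR called 1 of them higher, OVGP1, named after its values were seen (adjusted p = 0.0474, against 0.296 with all libraries). Their median log2 fold change was 0.041. MUC12, which lies beside MUC17, had a log2 fold change of 0.017 (SE 0.24, adjusted p = 0.970).

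Of 14 secretory partners of gel-forming mucins, among them the trefoil factors that are released with mucus, 9 were tested, 4 fell and 0 rose, with a median log2 fold change of -1.18. Of the 4 that fell, TFF3 and ERN2 passed the filter on low counts only through the Vector group, so this count and median are not independent of that filter. No gene was called higher at an unadjusted p under 0.05 or by DESeq2 either. AGR2, a protein disulfide isomerase of the endoplasmic reticulum needed for MUC2 assembly, had 14.0, 30.4 and 17.7 FPKM in the Vector libraries and 9.98, 7.12 and 6.46 FPKM in the OE-MMP28 libraries, and fell by 1.39 on the log2 scale (SE 0.23, adjusted p = 0.000275). The trefoil factor TFF3 had 4.26, 13.5 and 7.32 FPKM against 0.108, 0 and 0.102 FPKM, with 2, 0 and 2 reads left in the OE-MMP28 libraries (adjusted p = 7.37e-08). Like the gel-forming mucins, TFF3 was thus close to the limit of detection in the OE-MMP28 group, although it was well above it in the Vector group. TFF2 had 9.46, 18.5 and 9.97 FPKM against 5.33, 5.32 and 6.59 FPKM and fell by 1.12 (SE 0.26, adjusted p = 0.00438). The fourth gene that fell was ERN2, a stress sensor of mucous cells, with 0.0379 to 0.385 FPKM over the 6 libraries (log2 fold change -2.18, SE 0.54, adjusted p = 0.00582), named after its values were seen. The call of ERN2 was lost in limma on log2(FPKM + 1) (adjusted p = 0.0509). REG4 and BCAS1, also named after their values were seen, were called lower by edgeR without Vector replicate 1 and with no filter on low counts. The mucus protein FCGBP, also named after its values were seen, had a log2 fold change of 0.10 (SE 0.17, adjusted p = 0.702).

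Of 22 lineage transcription factors of mucous epithelium, 17 were tested, 3 rose and 2 fell, and the median log2 fold change was 0.037. FOXA1, a pioneer factor of endodermal epithelia, had 2.84, 5.00 and 3.85 FPKM in the Vector libraries and 1.22, 1.39 and 0.836 FPKM in the OE-MMP28 libraries. The groups were separate, and FOXA1 fell by 1.75 on the log2 scale (SE 0.25, adjusted p = 4.39e-05). CREB3L1, a factor of the secretory pathway, had 2.54, 17.2 and 5.82 FPKM against 2.21, 2.63 and 2.59 FPKM, so that the groups overlapped and Vector replicate 2 stood far above the rest. CREB3L1 fell by 1.77 (SE 0.40, adjusted p = 0.00358), by 0.74 without Vector replicate 2 (adjusted p = 0.0308), and was not called by DESeq2 (adjusted p = 0.0672) or by limma on log2(FPKM + 1) and log2(FPKM + 0.1) (adjusted p = 0.112 and 0.0946). MYRF (log2 fold change 0.49, SE 0.16, adjusted p = 0.0299) and KLF4 (0.47, SE 0.16, adjusted p = 0.0378) rose, and lost the call in 7 and 8 of the 17 alternative fits. FOXA3, named after its values were seen, had 0.209, 0.270 and 0.124 FPKM against 0.894, 0.835 and 0.759 FPKM with an adjusted p of 0.00227 (log2 fold change 2.04, SE 0.44), but it passed the filter on low counts only through the OE-MMP28 group. SPDEF, a regulator of goblet cells also named after its values were seen, had 0 to 9 reads per library and was not tested.

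Among 18 partners of membrane mucins, 15 were tested, 5 rose and 3 fell, with a median log2 fold change of -0.11. LGALS3, the galectin that binds the sugar chains of MUC1, had 304, 297 and 296 FPKM in the Vector libraries and 524, 494 and 613 FPKM in the OE-MMP28 libraries, and rose by 0.87 (SE 0.14, adjusted p = 0.000208). LGALS4, another galectin, rose by 0.73 (SE 0.14, adjusted p = 0.00120), and the scaffold SLC9A3R1 by 0.60 (SE 0.15, adjusted p = 0.00809). The kinase SRC, which phosphorylates the tail of MUC1, had 14.2, 13.8 and 14.2 FPKM against 6.81, 8.21 and 8.13 FPKM and fell by 0.85 (SE 0.15, adjusted p = 0.000478). The groups did not overlap for LGALS3, LGALS4, SLC9A3R1 or SRC. Of all genes tested, 19.0% were higher and 19.1% lower without overlap. The other tested galectins, named after their values were seen, were LGALS9 (log2 fold change -0.53, adjusted p = 0.188) and LGALS1 (-0.13, adjusted p = 0.680). The call of SLC9A3R1 was lost without Vector replicate 3 or without OE-MMP28 replicate 2.

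Receptors and ligands of single mucins were given whatever their value. CTNNB1, the beta-catenin that binds the MUC1 tail, fell by 0.47 (SE 0.15, adjusted p = 0.0226), and MET rose by 0.47 (SE 0.16, adjusted p = 0.0338), a call lost in 7 of 17 alternative fits. The call of CTNNB1 was lost without Vector replicate 3 or without OE-MMP28 replicate 3. EGFR had a log2 fold change of -0.11 (SE 0.16, adjusted p = 0.672) and ERBB2 of -0.23 (SE 0.17, adjusted p = 0.365). MSLN, or mesothelin, the ligand of MUC16, had 52.4 to 85.5 FPKM in the Vector group and 60.1 to 96.3 FPKM in the OE-MMP28 group, with a log2 fold change of 0.25 (SE 0.19, adjusted p = 0.364). Mesothelin was therefore abundant in libraries with almost no MUC16 reads. The remaining calls of this list, named after their values were seen, were EZR (log2 fold change 0.44, adjusted p = 0.0269) and ERBB3 (-0.57, adjusted p = 0.0127). EZR lost its call in 5 of the 6 fits without 1 library, all but that without Vector replicate 1, and ERBB3 without Vector replicate 3 or without OE-MMP28 replicate 3. The list then held as few as 2 genes called higher and 1 called lower.

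Of 11 proteases that can cleave mucins from the cell surface, 7 were tested, 2 rose and 0 fell, with a median log2 fold change of 0.20. At an unadjusted p under 0.05 1 gene was lower, namely ADAM17, which edgeR also called without Vector replicate 2, and DESeq2 called 0 genes lower. MMP7, a matrix metalloproteinase of epithelia, had 105, 93.7 and 123 FPKM in the Vector libraries and 330, 309 and 331 FPKM in the OE-MMP28 libraries. No OE-MMP28 library came near the Vector range, and MMP7 rose by 1.61 (SE 0.15, adjusted p = 2.50e-07). ST14, the membrane protease matriptase, rose by 0.54 (SE 0.18, adjusted p = 0.0336) with groups that overlapped, a call lost in 7 of 17 alternative fits. The sheddases ADAM10 and ADAM17, named after their values were seen, had log2 fold changes of 0.20 (adjusted p = 0.396) and -0.39 (adjusted p = 0.107).

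Of 22 enzymes that build the O-linked sugar chains of mucins, 15 were tested, 6 rose and 1 fell, and the median log2 fold change was 0.36. GALNT6, which adds the initial sugar to serine and threonine, had 0.436, 0.443 and 0.203 FPKM against 1.32, 1.51 and 1.21 FPKM and rose by 1.91 (SE 0.28, adjusted p = 5.74e-05). FUT2, the fucosyltransferase of secretor status, rose by 0.93 (SE 0.18, adjusted p = 0.00107), and GALNT10 by 0.85 (SE 0.17, adjusted p = 0.00139). GALNT5, of the same family as GALNT6, fell by 0.78 (SE 0.15, adjusted p = 0.00109) from 40.5 ± 1.90 to 23.5 ± 4.00 FPKM (SD, n = 3 each). The GALNT family, whose members act on overlapping sites, thus held genes called in both directions. The other 3 genes that rose, named after their values were seen, were GALNT2 (log2 fold change 0.72, adjusted p = 0.00293), B3GNT3 (0.71, adjusted p = 0.00148) and GALNT1 (0.47, adjusted p = 0.0437). GALNT1 lost its call in 11 of 17 alternative fits, and GALNT2 without OE-MMP28 replicate 2.

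**Figure D4:**
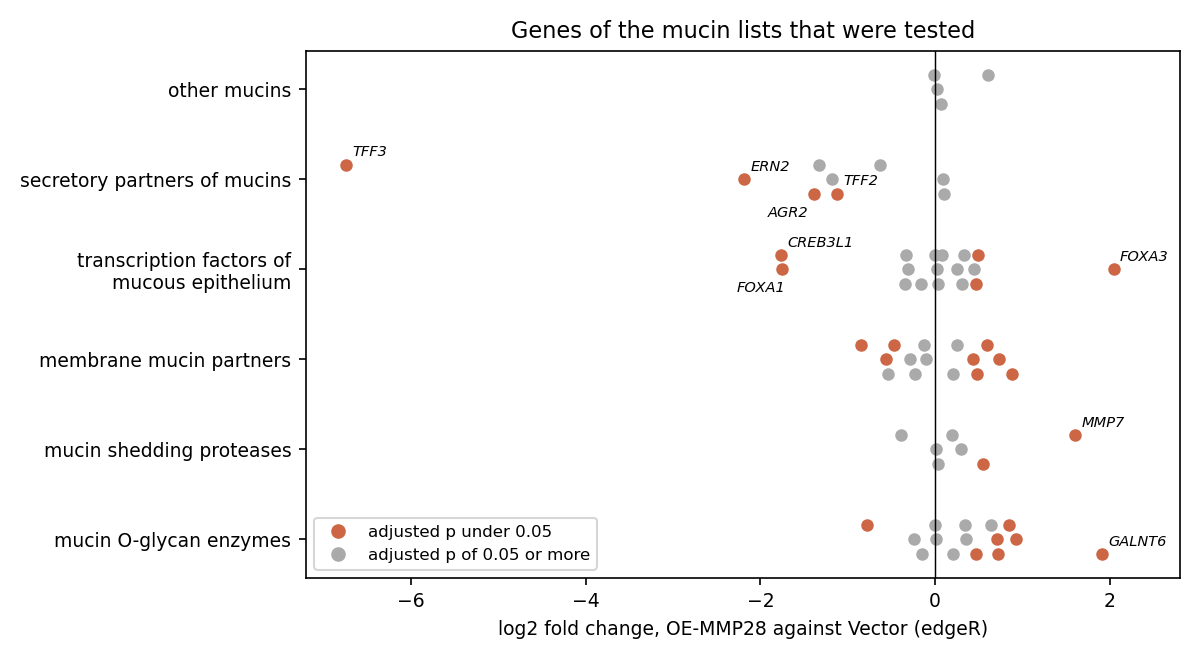
Log2 fold change of OE-MMP28 against Vector for every tested gene of the 6 lists (1 point per gene, orange for an adjusted p under 0.05 and grey otherwise, vertical offsets only to separate points), with names for calls beyond 1 in either direction. The secretory partners lie mostly left of 0, with TFF3 at -6.74, and the O-glycan enzymes mostly right of 0.

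Total counts per library were between 13633249 and 16691458, and mitochondrial genes took 11.9% to 14.8% of the counts in the Vector libraries and 8.80% to 11.9% in the OE-MMP28 libraries. All 8 markers of ductal and carcinoma epithelium were tested, with a summed level of 2692 to 3674 FPKM in the Vector libraries and 3597 to 4401 FPKM in the OE-MMP28 libraries, most of it from KRT8, KRT18 and KRT19. In that list KRT19 rose and CLDN4 (log2 fold change -0.61, adjusted p = 0.0135) and CDH1 (-0.59, adjusted p = 0.0113), both of cell junctions, fell, the call of CLDN4 being lost without Vector replicate 2 or OE-MMP28 replicate 1 and that of CDH1 without OE-MMP28 replicate 3. The 7 macrophage markers summed to 164 to 186 and 106 to 146 FPKM, nearly all of it LYZ, which epithelial cells also make and which fell by 0.45 (adjusted p = 0.0376, lost in 5 of 17 alternative fits). CD14 had 0.863 to 1.04 FPKM in the Vector libraries and 0.569 to 0.738 FPKM in the OE-MMP28 libraries (log2 fold change -0.60, adjusted p = 0.243). The others, CD68, CSF1R, AIF1, PTPRC and CD163, stood at 0.259 FPKM or less. The 6 fibroblast markers summed to 33.9 to 40.9 and 39.3 to 57.0 FPKM, nearly all of it LUM. The 4 endothelial markers summed to at most 0.293 FPKM, with PECAM1 called higher (log2 fold change 2.79, adjusted p = 0.00361) after passing the filter only through the OE-MMP28 group, and the 4 acinar markers to at most 0.242 FPKM. The part of these differences in the mucin results was not tested.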

How the data were processed

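RNA from 6 AsPC-1 libraries, 3 Vector and 3 OE-MMP28, was compared. Groups and replicate numbers came from the sample labels. The submitters' processing notes name HISAT2 2.0.5 and featureCounts 1.5.0-p3. The authors deposited whole-number read counts per gene and FPKM values. Coordinates were the same as in GENCODE release 29 on GRCh38. The strand setting was not given in the sources used here. The results of the authors' own comparison in the deposited table (p-values and log2 changes) were not used. Of the columns with values of a sample, 0 were left without a sample.

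Counts were tested with edgeR 4.0.16 in R 4.3.3 (TMM, filterByExpr with a minimum count of 10 and total of 15, group alone in the model, Benjamini-Hochberg adjustment over 15319 genes). The fit was tested on simulated data. Total counts ran from 13633249 to 16691458. The exact intervals and the limits of detection cover counting error only. Each SE was derived from the log2 fold change and the F statistic of the edgeR test. Ranges given in SE therefore include the spread between libraries. The 17 alternatives included DESeq2 1.42.0 and limma 3.58.1 on the counts and on log2(FPKM + 1) or log2(FPKM + 0.1), other scalings and filters, and each library left out.

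The members, lists and motifs were chosen with earlier results of these data known. Named genes were all members, MMP28, 7 direct partners, and of each list up to 4 genes with an adjusted p under 0.05, at least 1 FPKM in a group and the largest change. Genes of the lists named outside this rule are marked. Cell type markers were also named after their values were seen and are not marked. Genes next to a member were also named.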

Additional observations from a re-analysis of the deposited data

How the results depend on the processing

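MUC1 and MUC13 were called higher in all 17 alternatives. The number of mucins called lower was 3, and moved to 1 with a filter of at least 1 CPM in 3 libraries (MUC5AC and MUC5B were then not tested), to 0 with limma on log2(FPKM + 1) and to 0 with limma on log2(FPKM + 0.1), where 2 and 3 mucins were lower at an unadjusted p under 0.05. With no filter it was 4, since MUC2 was added (adjusted p = 0.0234). Leaving out 1 library gave 2 to 3 mucins lower and 2 higher. The log2 fold change of MUC17 was 0.079 without Vector replicate 1 and 0.14 without OE-MMP28 replicate 3, from -0.21 to 0.14 over the 6 libraries left out. That of EGFR was 0.036 without OE-MMP28 replicate 3, from -0.22 to 0.036 over the libraries left out. The filter acts through the genes it leaves out, and the cause of the other changes was not tested. For each gene the group mean was subtracted from log2 CPM, and these deviations were correlated between libraries of the 2 groups. Same-numbered libraries correlated at 0.017, 0.0080 and -0.088. The deviations thus showed no pairing by replicate number, but 3 libraries per group are too few to settle it. A replicate block left 2 mucins higher and 3 lower, with 1844 and 1841 genes called in all against 1795 and 1784. Without OE-MMP28 replicate 2 these were 985 and 1044, and without Vector replicate 3 1136 and 1231. In the deviations from the group means, no library correlated best with the library of its own number. Depth limits MUC2, MUC6 and MUC16, and leaves MUC5AC and MUC5B resting on few reads.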

Other observations

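Genes tested within 500000 bases of a member on the same chromosome were compared with it, on the coordinates of build GRCh38. Around MUC13, 5 of 7 neighbours rose and 0 fell, with a median log2 fold change of 0.54, where 11.7% of all genes tested were called higher. The neighbours next to it were ITGB5, an integrin subunit (log2 fold change 0.44, SE 0.14, adjusted p = 0.0278), and HEG1, a mucin-like membrane protein (1.89, SE 0.43, adjusted p = 0.00334). HEG1 was scarce, with a mean of 0.0464 FPKM in the Vector group and 0.173 FPKM in the OE-MMP28 group. Around MUC1, 7 of 39 neighbours rose and 6 fell, with a median of 0.13. TRIM46, next to MUC1, had a log2 fold change of 0.87 (SE 0.37, adjusted p = 0.0945). Around MUC4, which fell, 6 of 17 neighbours rose and 0 fell, with a median of 0.38, and these windows share genes with that of MUC20, where 5 of 16 rose and 0 fell. MUC20-OT1, which overlaps MUC20, had a log2 fold change of 0.38 (SE 0.16, adjusted p = 0.0925).

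On chromosome 11, around MUC5B, 1 of 24 neighbours rose and 3 fell, with a median log2 fold change of -0.041, and TOLLIP, next to MUC5B, had a value of -0.053 (SE 0.16, adjusted p = 0.843). AC139749.1, which lies between MUC6 and MUC2, fell by 2.07 (SE 0.49, adjusted p = 0.00457), from 0.492 ± 0.122 to 0.114 ± 0.0775 FPKM (SD, n = 3 each). AP2A2, next to MUC6, had -0.29 (SE 0.15, adjusted p = 0.178). Around MUC17, 1 of 32 neighbours rose and 3 fell, with a median of -0.021, and around MUC16, 1 of 12 rose and 1 fell. These counts are descriptions: neighbours were not tested as sets, and windows of members in a cluster share most of their genes. Whether HEG1, AC139749.1 or other neighbours passed the filter on low counts through 1 group only was not examined. The counts, medians and calls of neighbours may therefore depend on that filter.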
